A study of Mus musculus with 12 samples.

Results

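Fibrotic skin at 20 weeks was compared with normal skin of C3H/HeJ mice, gene by gene, in messenger RNA sequencing of macrodissected tissue. The comparison rested on 6 of the 12 libraries of the series: 3 of normal skin, to which the labels give no time point, and 3 of fibrotic skin at 20 weeks not labelled as treated. A second reference was the 6-week fibrotic group (3 libraries, likewise untreated), and the 3 libraries of 20-week skin given CD36highCD90+ fibroblasts were used only in an alternative fit. The labels name no genotype or agent besides the strain, and the cause of the fibrosis is not among them. Nothing in them ties a library to an animal, so p-values here rest on the spread between samples that may be technical replicates. Of 23359 genes in the deposited table, the 13249 with at least 1 FPKM (fragments counted for a gene, divided by its transcript length and by the size of the library) in at least 3 of the 6 libraries were tested.

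Fibrotic skin is known for excess collagen laid down by fibroblasts, and long-lasting injury also tends to cost the dermis its hair follicles, sebaceous glands and fat. Above the dermis, basal keratinocytes of the epidermis express Krt5 and Krt14, and suprabasal cells switch to Krt1 and Krt10. They end as cornified cells, whose envelope is assembled from loricrin, involucrin, late cornified envelope (LCE) proteins and small proline-rich (SPRR) proteins. Irritated or wounded epidermis adds the keratins of the Krt6 and Krt16 genes, protease inhibitors and antimicrobial proteins.

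Values were compared as log2(FPKM + 1) with limma, and a gene was called at a Benjamini-Hochberg adjusted p under 0.05. Fold changes on this scale understate the change of low genes. Of the genes tested, 5259 were called (39.7%), 2449 of them higher (18.5%) and 2810 lower (21.2%) at 20 weeks. At least a 2-fold change was seen in 1426 called genes (10.8%), 799 higher (6.03%) and 627 lower (4.73%). At least a 4-fold change was seen in 247 higher genes (1.86%) and 90 lower genes (0.679%), so the large changes were mostly increases. Genes under 1 FPKM in all libraries of 1 group entered the test only through the other group and had to differ. They made up 164 of the higher and 218 of the lower calls. Of the genes with values given below, Wfdc12, Krt2, Cthrc1, Mmp13, Defb3, Trem2, Cd8a, Cd8b1 and Cdkn2a entered only through the 20-week libraries. Col8a2, Mc5r and Il31ra entered only through normal skin. The groups did not overlap in 7302 genes (55.1%). The balance between higher and lower depended on scaling: after rescaling to equal totals without the muscle, hair shaft and cornified envelope genes, 1350 genes were higher and 5859 lower, the median of all genes moved from -0.04 to -0.32, and 18.7% of calls were higher in place of 46.6%. Changes of under about this shift therefore have no fixed direction, and the text leads with larger ones.

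All libraries held 12658 to 13052 genes at 1 FPKM or more. Their FPKM totals, without short RNAs and genes listed at 0 beside high values, were 471273 to 505148 in normal skin and 600093 to 631253 at 20 weeks. Of the markers used to check the tissue, Krt5 stood at 2327, 2335 and 2279 FPKM in normal skin and 3121, 3232 and 2790.0 at 20 weeks, and all of Krt14, Dcn, Col1a1, Col3a1, Pecam1 and Ptprc were detected in every library. Krt10, the keratin of suprabasal cells, was listed at 0 in replicates 2 and 3 of 20 weeks beside 16040.3 FPKM in replicate 1, and Krt1 and Hrnr at 0 in all 3, so these genes carry no fold here and stay out of the list counts. Skeletal muscle fibre genes took 0.0480% to 1.93% of FPKM in normal skin and 0.175% to 0.812% at 20 weeks. Adipocyte genes took 0.607% to 1.01% and 0.2996% to 0.477%. These shares did not overlap, but the totals they are divided by were larger at 20 weeks, which lowers a share there. Of 22 adipocyte genes 9 fell and 1 rose, a share called of 45.5% beside 39.7% of all genes. In the fit of all 12 libraries 2 fell, and 4 without replicate 1 of 20 weeks. In bulk tissue, fewer cells of a type and less RNA per cell cannot be told apart.

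The genes with the largest increases belonged to the protease inhibitors, keratins and envelope proteins of stressed epidermis. BC100530, a stefin gene whose product inhibits cysteine proteases, had 5.1, 15 and 28.3 FPKM in normal skin and 15787, 13365 and 15662 at 20 weeks, a log2 fold change of 10.04 ± 0.53 (SE, limma adjusted p = 0.000148). It was among the most abundant messages of all 3 fibrotic libraries and far below that in every normal one. Krt6b went from 1.02, 2.05 and 3.11 to 2427, 1726 and 965 FPKM, and Krt16 from 13.8, 22.1 and 23.3 to 3675, 3199 and 1718. These were log2 fold changes of 9.08 and 7.07, with replicate 3 of 20 weeks the lowest fibrotic library for both. Wfdc12, a gene of the whey acidic protein family of protease inhibitors, had 0.423, 0.393 and 0.36 FPKM in normal skin and 166, 243 and 171 at 20 weeks. The 10 highest and 10 lowest genes were taken from called genes whose groups did not overlap, so their separation in the plot was set by that choice. Several stefins are near-identical copies that share reads, so the split between them is uncertain. Taken as a group, stefin and cystatin genes took 0.234% to 0.257% of FPKM in normal skin and 3.76% to 4.51% at 20 weeks.

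**Figure D1:**
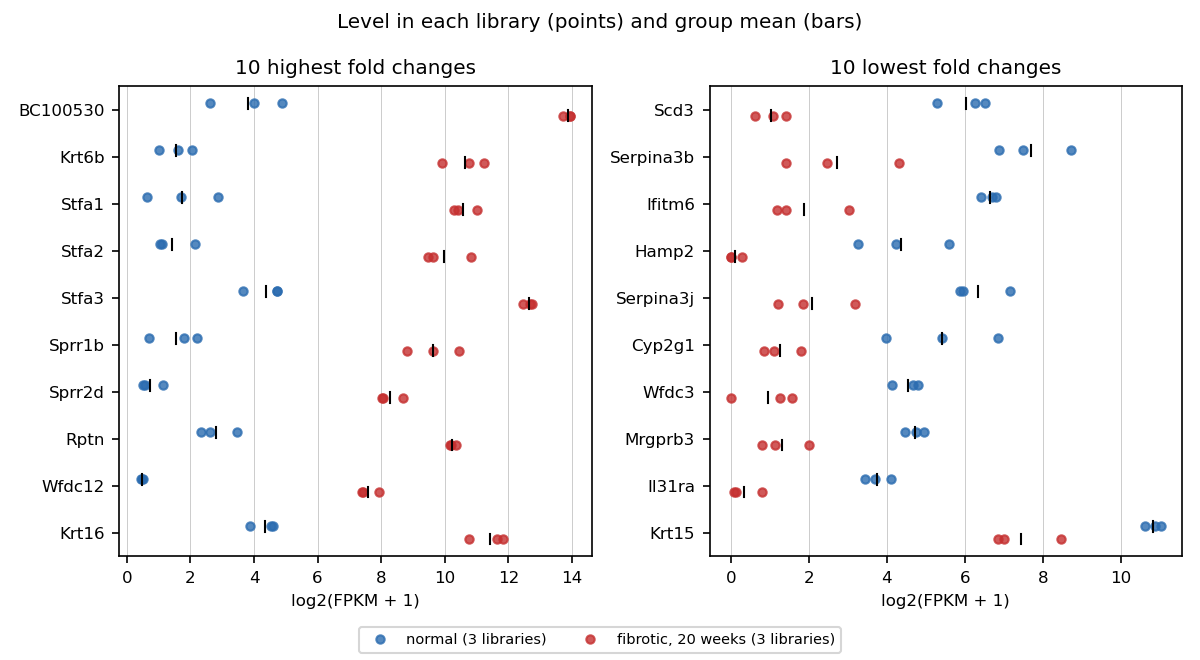
Level of the 10 genes with the highest and the 10 with the lowest log2 fold change at 20 weeks against normal skin, as log2(FPKM + 1) on the x axis, with 1 point per library and a bar at the mean of each group of 3. Only called genes whose groups did not overlap could be taken, so the separation of the groups was set by that choice. BC100530 has the largest gap, 10.04.

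Of 44 tested cornified envelope genes 37 rose and 2 fell, with a median log2 fold change of 3.26 against -0.04 over all genes. Of the 37, 12 passed the filter on low values only through the 20-week libraries. Rptn, which encodes repetin, went from 5.14, 9.93 and 4.03 to 1168, 1293 and 1156 FPKM, with the 3 fibrotic libraries close together. Lor, for loricrin, the main envelope protein, was already abundant in normal skin at 1404, 2159 and 2065 FPKM and stood at 4629.9, 4555 and 3525 at 20 weeks (1.19 ± 0.23, SE, adjusted p = 0.00826). Among LCE genes, Lce3d and Lce3e of the third LCE group rose by 6.64 and 6.4. The lower members were Flg2, a filaggrin relative of the upper epidermis (-0.96), and Lce1m (-1.08), whose call is lost in some alternatives. The most abundant genes called at 2-fold or more also included Calm4, a calmodulin-like gene (914, 1333 and 1130.2 to 9555, 10110.3 and 12259.6 FPKM), and Asprv1, a protease gene of filaggrin processing (496, 805 and 409.9 to 3527, 3607 and 3431 FPKM).

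Many of these genes lie side by side, and neighbours rose together. Chosen after their values were seen, 11 stretches held at least 4 consecutive tested genes that were all called at 2-fold or more in 1 direction. Untested genes in between did not break a stretch. Of the higher genes in the lists of these families, 12 envelope, 2 kallikrein or Spink, 1 serpin and 1 stefin or cystatin gene passed the filter only through the 20-week libraries. These had to differ, and how many of them lie in the stretches was not counted. On mm10 chromosome 3 between 92570899 and 93015686, 23 genes from Ivl to Crct1 rose, with a median log2 fold change of 3.41, and between 92250647 and 92438817, 11 genes from Sprr2a2 to Sprr1b rose with a median of 4.85. The 6 stefin and cystatin genes at chromosome 16, 36119946 to 36455392, had a median of 6.94. Of the clade B serpins on chromosome 1, 106934449 to 107380475, 6 rose (median 2.91), and on chromosome 7 stretches of 5 (43791625 to 43851181) and 4 (43680880 to 43779263) kallikrein genes rose, with medians of 2.93 and 3.77. A single stretch fell, of 6 genes on chromosome 13, 3882018 to 4249777, mostly of the aldo-keto reductase 1C family, with a median of -1.73. Copies within these families resemble each other, and their single values are uncertain where reads could be shared.

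**Figure D2:**
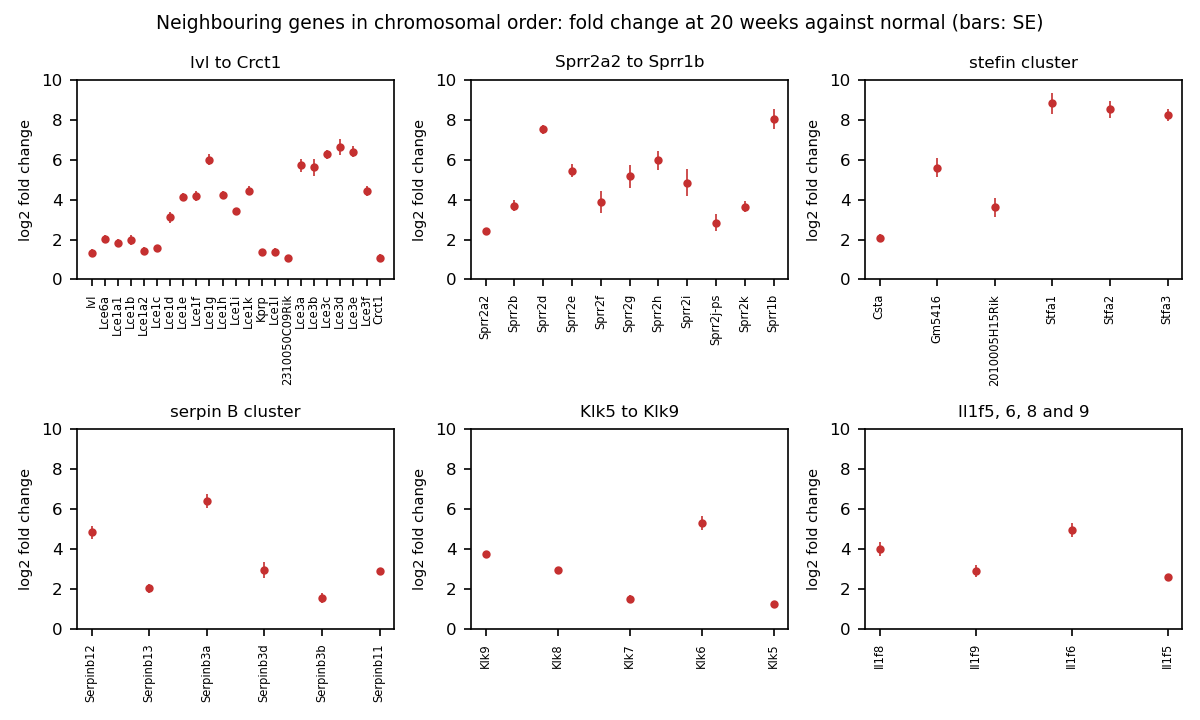
Log2 fold change at 20 weeks against normal skin (y axis, bars are the SE) of the called genes in 6 chromosomal stretches, in gene order along the x axis. Every gene shown lies above 1 because the stretches were chosen that way, and the LCE3 and SPRR2 genes and stefins reach the highest values.

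The promoters of the strongest genes were searched in the RefSeq table of GRCm38.p6, the build named mm10, over the 250 bases before the gene start. A promoter entry was matched for 9828 of the 13249 genes. The letters TGANTCA, the core of the site bound by AP-1 factors, were present on either strand in 6.30% of all matched promoters, in 22.5% (39 of 173) of genes called higher by 4-fold or more, in 12.3% (8 of 65) of genes lower by 4-fold or more, and in 35.5% (11 of 31) of the cornified envelope genes called higher. TATAAA, read on the gene's own strand, was present in 5.72% of all, 18.5% of the genes higher by 4-fold, 12.3% of those lower and 38.7% of the envelope genes. The higher set and the envelope set share genes, and both hold neighbouring family copies that resemble each other, so their promoters are not independent. The letters are a description of these windows and say nothing of binding. Of the 10 highest genes, only 3 gave a stretch with TGANTCA. The others, BC100530, Krt6b and Krt16 among them, had no match or no promoter entry. The 3 stretches are shown with TGANTCA in capitals, 5′ to 3′ on the gene's strand. They lie on chromosome 3: Sprr2d at chr3:92338925-92338975 (plus strand), Sprr1b at chr3:92438862-92438912 (minus strand) and Rptn at chr3:93393581-93393631 (plus strand).
Sprr2d: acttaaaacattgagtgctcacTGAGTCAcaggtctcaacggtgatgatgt
Sprr1b: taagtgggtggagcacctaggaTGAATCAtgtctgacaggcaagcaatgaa
Rptn: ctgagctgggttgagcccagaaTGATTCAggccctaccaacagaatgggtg

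Keratins outside the wound set moved apart from each other. Krt14, the basal partner of Krt5, rose from 1213, 1309.6 and 872 to 4763, 4786 and 2887 FPKM (1.86 ± 0.27, SE, adjusted p = 0.00312), whereas Krt5 had 0.39 (95% interval 0.05 to 0.74, adjusted p = 0.0702), above normal in all 3 libraries without passing the test. Krt2, a late suprabasal keratin, had 0.65, 0.723 and 0.64 FPKM in normal skin and 276, 325 and 83.8 at 20 weeks. Krt77, a keratin of adult suprabasal epidermis and sweat ducts, fell from 2441, 3322 and 2228 to 389, 1025 and 633 FPKM. Of 25 genes for barrier lipids and crosslinking, 20 rose and 2 fell. Among them Degs2, a ceramide hydroxylase gene, went from 1.46, 1.88 and 1.87 to 70.2, 41 and 36.4 FPKM, and Casp14, the caspase of cornification, from 53.2, 99 and 59 to 1171, 709 and 802. Cers4, a ceramide synthase gene, fell from 26.9, 54 and 19.1 to 6.23, 11.9 and 5.25 FPKM. Kallikreins and their Spink inhibitors rose in 15 of 19, and 2 of the 15 passed the filter only through the 20-week libraries. Klk13, a serine protease gene, went from 0.534, 1.52 and 0.52 to 148, 117 and 128 FPKM, whereas the inhibitor gene Spink6 fell by 1.91 on the log2 scale. Connexin genes had some of the largest changes among cell junction genes, of which 14 of 26 rose and 5 fell. Gjb2 had 3.47, 21.8 and 7.28 FPKM in normal skin and 799, 604 and 365 at 20 weeks (5.89 ± 0.60, SE), and Gjb6 rose by 5.06. After the rescaling 9 of the junction genes were higher.

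Transcription factors of the epidermis rose in 14 and fell in 4 of 25 members, or 8 and 7 after the rescaling. Of the 14, 1 passed the filter only through the 20-week libraries. Ehf, an ETS factor gene of epithelia, went from 6.2, 10.2 and 8.98 to 75.9, 51.8 and 58.7 FPKM. Ovol2, a zinc finger gene that maintains epithelial identity, fell from 8.82, 6.62 and 11.9 to 1.99, 2.2 and 2.44 FPKM and Tfap2b by 2.56 on the log2 scale. Of 17 genes of retinoid metabolism, 11 rose and 3 fell, but 8 rose after the rescaling, and 1 fell without normal replicate 1 or without replicate 1 or 3 of 20 weeks. Of the 11, 2 passed the filter only through the 20-week libraries. The EGF receptor ligand Ereg (epiregulin) went from 8.05, 12.7 and 9.38 to 43, 39.6 and 50.1 FPKM (2.05 ± 0.17, SE).

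**Figure D3:**
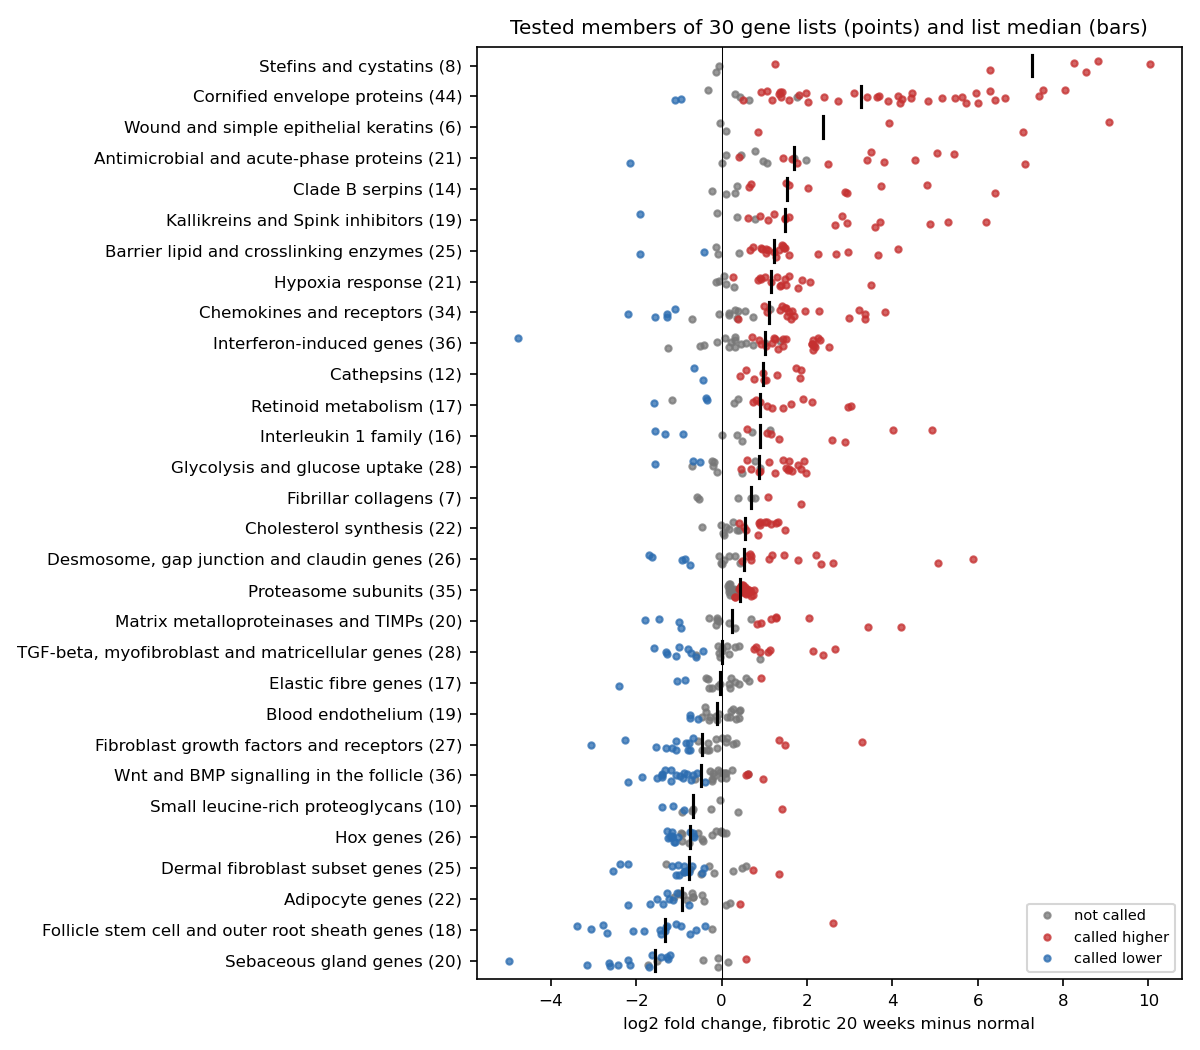
Log2 fold change at 20 weeks against normal skin (x axis) of every tested member of 30 gene lists, numbers of members in parentheses, with a bar at each list's median. Red and blue points are called higher and lower: envelope proteins and stefins lie mostly above 1, and follicle and sebaceous genes mostly below 0.

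Follicle stem cell genes and sebaceous gland genes mostly fell, whereas few genes of the hair shaft and its sheath were called. Of 18 genes of follicle stem cells and the outer root sheath, 16 fell and 1 rose (median -1.32). Krt15, a keratin of the follicle bulge, had 2079, 1564 and 1876 FPKM in normal skin and 115, 351 and 129 at 20 weeks. In bulk tissue this level is not tied to the bulge, and the part of the rest of the epidermis in it was not tested. Fgf18, a growth factor that holds follicles in rest, had 17.3, 10.4 and 13.2 and 0.423, 1.67 and 0.343 (-3.06 ± 0.30, SE, adjusted p = 0.000905). The 1 higher member, the water and glycerol channel gene Aqp3, is also known from the basal epidermis and went from 90.6, 105 and 90.1 to 726, 568 and 475 FPKM. Wnt and BMP genes of the follicle fell in 18 of 36 and rose in 3, led by the BMP antagonist gene Grem1 (15.7, 18.3 and 10.6 to 2.3, 4.49 and 1.12 FPKM). Of 20 sebaceous gland genes 13 fell and 1 rose (median -1.57), and 2 of the 13 passed the filter only through normal skin. Scd3, a stearoyl-CoA desaturase gene of sebocytes, had 75.8, 91 and 38 FPKM in normal skin and 1.12, 1.68 and 0.525 at 20 weeks, the lowest fold change of all named genes together with Serpina3b (-4.99 each). Serpina3b and Serpina3j, relatives of the antichymotrypsin gene, had 181, 423 and 117 and 60.9, 143 and 57.5 FPKM in normal skin and 4.49, 18.8 and 1.65 and 2.63, 8.15 and 1.3 at 20 weeks, with replicate 2 the highest fibrotic library for both. Fa2h, a fatty acid hydroxylase gene, fell from 76.3, 139 and 41.9 to 8.38, 18.8 and 2.59 FPKM and Mc5r, the melanocortin receptor of sebocytes, from 7.01, 11.9 and 3.77 to 0.187, 0.868 and 0.41. The inner root sheath, which moulds the hair, had 2 of 11 genes higher and 0 lower (median 0.79, or -0.15 without normal replicate 1). Hair shaft genes had 1 member higher and 0 lower of 30, and the higher member passed the filter only through the 20-week libraries. The summed share of hair shaft genes was 0.0154% to 0.220% in normal skin and 0.0425% to 0.0898% at 20 weeks. Without normal replicate 2, which had the highest share, 9 of them were higher, and without normal replicate 1, which had the lowest, their median was -0.58 in place of 0.59.

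Genes of the matrix moved in both directions. Of 7 fibrillar collagen genes 2 rose and 0 fell, a share called of 28.6% beside 39.7% of all genes, and 1 rose and 1 fell after the rescaling. The 2 were Col1a1 and Col1a2, the chains of type I collagen. Col1a1 had 24.5, 36.8 and 17.2 FPKM in normal skin and 86.1, 151 and 62.8 at 20 weeks (1.86 ± 0.38, SE, adjusted p = 0.01), with no overlap. Col1a2 rose from 61.4, 96.6 and 60.2 to 154, 222 and 103 (1.09, adjusted p = 0.0323), a call that did not hold without replicate 1 or 2 of 20 weeks, without normal replicate 1 or 3, after the rescaling or with no filter on low values. Col3a1, of type III collagen, had 77.1, 173 and 78.6 and 153, 232 and 66.7 FPKM and overlapped (0.39, 95% interval -0.84 to 1.61, adjusted p = 0.578), and Fn1, of fibronectin, had -0.08 (-1.19 to 1.02, adjusted p = 0.901). Col12a1, a collagen that sits on fibril surfaces, rose from 3.31, 5.33 and 3.82 to 16.3, 20.7 and 14.4 FPKM. Col8a2, a short-chain collagen, fell from 9.12, 7.52 and 8.96 to 0.942, 0.849 and 0.334. Matricellular and TGF-beta genes rose in 8 and fell in 9 of 28, and fell in 5 without replicate 1 of 20 weeks or without normal replicate 2. Of the 8, 2 passed the filter only through the 20-week libraries. Tnc, for tenascin-C, went from 3.36, 7.86 and 2.46 to 31.7, 26.6 and 19.9 FPKM, and Cthrc1 of collagen-producing fibroblasts from 0.298, 0.472 and 0.399 to 12.1, 9.55 and 3.94. Acta2, the actin of myofibroblasts and vessel walls, had 26, 33.5 and 17.2 and 23.5, 50.3 and 30.7 FPKM and was not called (0.41, 95% interval -0.38 to 1.20, adjusted p = 0.357).

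Of 10 small leucine-rich proteoglycan genes 1 rose and 3 fell, a share called of 40.0% beside 39.7% of all genes, and 1 to 5 fell over the libraries left out (1 without normal replicate 1, 5 without replicate 2 of 20 weeks, and 6 after the rescaling). Bgn (biglycan) rose from 37.2, 43.3 and 23 to 103, 112 and 63.7 FPKM (1.41 ± 0.29, SE), whereas Dcn (decorin) fell from 243, 405 and 272 to 134, 182 and 57.8 (-1.4 ± 0.43, SE, adjusted p = 0.0395), a call lost without replicate 1 of 20 weeks, without any of the normal libraries and under median-of-ratios scaling. Of 25 dermal fibroblast subset genes 14 fell and 2 rose (median -0.76), and 8 fell without replicate 1 of 20 weeks or without normal replicate 1, and 9 without normal replicate 2. Of the 14, 1 passed the filter only through normal skin. Pi16, a marker of adventitial fibroblasts, went from 25.5, 22.8 and 18.7 to 4.82, 4.23 and 1.02 FPKM, with replicate 3 of 20 weeks the lowest. Efemp1, a fibulin gene of elastic tissue, fell from 27, 52.6 and 40.1 to 6.5, 9.8 and 4.15. The surface marker gene Thy1 (CD90) had 41.3, 67.7 and 35.9 and 57.5, 68.4 and 46 FPKM and overlapped (0.28, adjusted p = 0.427), and Cd36 had -0.74 (adjusted p = 0.145). In the same libraries the fibroblast list's mean level on the log2 scale, set to 0 in normal skin, was -0.67, -0.43 and -0.92 in replicates 1 to 3 of 20 weeks. The part of fibroblast number in the matrix values was not tested.

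**Figure D4:**
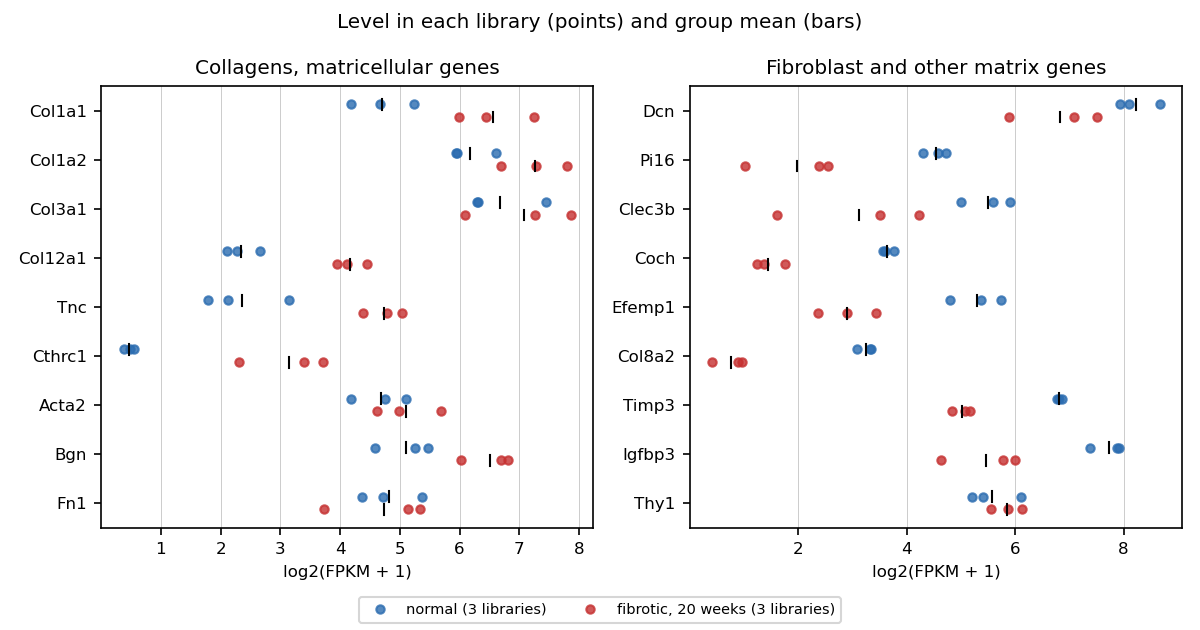
Level of 18 matrix and fibroblast genes as log2(FPKM + 1) on the x axis, with 1 point per library and a bar at the mean of each group of 3. Col1a1, Col1a2, Col12a1, Tnc, Cthrc1 and Bgn lie higher at 20 weeks, Pi16, Coch, Dcn, Clec3b, Efemp1, Col8a2, Timp3 and Igfbp3 lower, and Col3a1, Acta2, Fn1 and Thy1 overlap.

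Matrix metalloproteinase and inhibitor genes rose in 8 and fell in 4 of 20. The filter was passed only through the 20-week libraries by 1 of the 8, and only through normal skin by 1 of the 4. Mmp12, the macrophage elastase, had 0.256, 1.07 and 0.223 FPKM in normal skin and 34.7, 15.2 and 33.7 at 20 weeks, and Mmp13, a collagenase, 0, 0.0359 and 0.16 and 16.7, 25.3 and 2.18. The inhibitors moved apart: Timp1 rose from 1.35, 2.3 and 4.13 to 22, 12.4 and 7.99 FPKM (2.04 ± 0.41, SE), and Timp3, the most abundant of them in normal skin, fell from 111, 108 and 115 to 27.7, 32.8 and 34.9 (-1.78 ± 0.11, SE, adjusted p = 0.000207). Cathepsin genes, for lysosomal proteases, rose in 10 and fell in 2 of 12. After the rescaling 7 rose, and 8 without normal replicate 1 or replicate 3 of 20 weeks. Ctsc had 15.1, 26.6 and 21.1 FPKM in normal skin and 100.005, 64 and 71 at 20 weeks. Has3, a hyaluronan synthase gene, went from 1.7, 1.4 and 1.01 to 19.7, 9.39 and 10.7 FPKM, and Stab1, a scavenger receptor gene of macrophages and endothelium, from 1.97, 2.71 and 1.21 to 15, 18.8 and 17.5. Of the growth factor binding proteins, Igfbp2 rose from 5.02, 9.08 and 1.55 to 35.3, 69.7 and 54.4 FPKM and Igfbp3 fell from 242, 165 and 235 to 53.5, 62.9 and 23.9.

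Cytokine genes of the epidermis rose as a neighbouring group. Of 16 interleukin 1 family genes, 8 rose and 3 fell (5 rose in the fit of all 12 libraries). Il1f6, of interleukin 36 alpha, had 2.29, 8.3 and 3.72 FPKM in normal skin and 177, 150.037 and 149 at 20 weeks (4.92 ± 0.36, SE, adjusted p = 0.000347). Il1f8 and Il1f9, of the other interleukin 36 agonists, rose by 4.01 and 2.88, and Il1f5, of the antagonist of their receptor, rose by 2.59. These 4 genes are consecutive on chromosome 2, 24153172 to 24282432. Il1f10, a relative at the same locus, fell from 15.9, 17.4 and 15.4 to 3.47, 7.05 and 4.52 FPKM, and the receptor gene Il1r1 from 17.5, 18.9 and 20.6 to 9.92, 9.39 and 9.64. The itch cytokine receptor gene Il31ra was among the lowest of all, with 16.1, 11.8 and 9.87 FPKM in normal skin and 0.0485, 0.744 and 0.10 at 20 weeks.

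Antimicrobial genes rose in 12 and fell in 1 of 21, and 3 of the 12 passed the filter only through the 20-week libraries. Slpi, an inhibitor of neutrophil elastase, went from 2.5, 3.19 and 2.63 to 120.1, 147 and 105 FPKM (5.04 ± 0.14, SE). S100a8 and S100a9, the subunits of calprotectin, had 6.13, 5.96 and 28.4 and 8.19, 10 and 31.9 FPKM in normal skin and 1995, 293 and 205 and 1235, 186 and 174 at 20 weeks. Replicate 1 of 20 weeks lay far above the other two fibrotic libraries for both, and all lay above normal. Defb3 was listed at 0 in all normal libraries and at 40.3, 12.3 and 3.98 FPKM at 20 weeks, whereas the abundant defensin gene Defb6 fell from 2196, 2312 and 2950.0 to 935, 577 and 322.

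Chemokine and receptor genes rose in 19 and fell in 5 of 34, or in 11 and 4 in the fit of all 12 libraries, and 6 of the 19 passed the filter only through the 20-week libraries. Cxcl9, an interferon-gamma-induced attractant of T cells, had 1.52, 0.722 and 1.15 FPKM in normal skin and 63, 25.2 and 14.5 at 20 weeks, and Ccl5, another T cell attractant, 1.73, 2.01 and 0.853 and 39.1, 18.2 and 19.9. The keratinocyte chemokines Ccl27a and Cxcl14 fell, Ccl27a from 239.5, 205 and 181 to 32, 58.2 and 47.5 FPKM and Cxcl14 from 141, 138 and 110.1 to 51.1, 60.9 and 47.6. T and NK cell markers rose in 9 and fell in 5 of 23 (4 and 3 in the 12-library fit, and 3 lower when any of the 6 libraries but normal replicate 2 was left out). Of the 9, 6 passed the filter only through the 20-week libraries, Cd8a and Cd8b1 among them, so their values are given without a test. Of the 5 lower, 1 passed it only through normal skin. Cd8a and Cd8b1, the chains of the co-receptor of cytotoxic T cells, had 0.00748, 0.133 and 0.0201 and 0.106, 0.056 and 0.0974 FPKM in normal skin and 7.97, 6.67 and 8.9 and 5.99, 5.47 and 6.85 at 20 weeks, log2 fold changes of 3.06 and 2.7. In the same libraries Cd247, of the zeta chain of the T cell receptor complex, fell by 1.16 on the log2 scale. Over the alternative fits the log2 fold change was also below 0 for Cd3e (-0.92 to -0.51), Cd3g (-1.01 to -0.46) and Ctla4 (-1.81 to -0.84). Cd3e and Cd3g were not called in every fit, and Cd3d (-0.32 to 0.09) was called in none. Ptprc (CD45), which all white blood cells carry, had 6.11, 8.42 and 8.54 and 7.04, 6.96 and 8.95 FPKM and did not separate the groups (0.00, 95% interval -0.38 to 0.37, adjusted p = 0.996).

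Of 23 macrophage markers 10 rose and 3 fell, but 4 and 2 in the 12-library fit. Of the 10, 1 passed the filter only through the 20-week libraries. It was 5 that rose without normal replicate 1, and 6 without any one of the 3 libraries of 20 weeks, and at most 1 fell whichever of the 6 libraries was left out. Trem2, a lipid-sensing receptor gene of tissue macrophages, rose from 0.889, 0.718 and 0.525 to 8.01, 4.99 and 7.97 FPKM. The summed share of the macrophage markers was 0.118% to 0.187% of FPKM in normal skin and 0.136% to 0.140% at 20 weeks. Of 8 mast cell genes 3 fell and 1 rose, but 5 fell after the rescaling, and 1 in the 12-library fit and without normal replicate 1 or 2 or replicate 1 or 3 of 20 weeks. The higher call was lost without normal replicate 1 or 2 or replicate 1 or 2 of 20 weeks. Mrgprb2, a receptor gene of connective tissue mast cells, went from 12.5, 11.3 and 20.9 to 0.485, 1.81 and 0.814 FPKM.

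Of 36 interferon-induced genes 20 rose and 1 fell (median 1.02), and 5 and 2 in the fit of all 12 libraries. Oas3 and Oas1a, of enzymes that sense double-stranded RNA, had 0.444, 0.604 and 1.38 and 1.94, 2.3 and 3.37 FPKM in normal skin and 12.5, 10.6 and 5.73 and 21.4, 17.2 and 10.5 at 20 weeks. Replicate 3 of 20 weeks was the lowest fibrotic library for both, and the mean level of the list on the log2 scale was 1.25, 0.99 and 0.37 in replicates 1 to 3 against -0.22 to 0.35 in normal skin. Ifitm6 was the lower member, at 103, 111 and 84.2 and 1.67, 7.17 and 1.26 FPKM. The letters GAAA, repeated on the same strand after 2 free bases, are the core of the interferon-stimulated response element. They were present on either strand in the 250 bases before the start of 62.5% (10 of 16) of the list's higher genes that had a promoter entry, against 3.13% of all matched promoters. The list was made of known interferon-induced genes, and the share among its members not called higher was not computed. The difference therefore describes the list and not the change at 20 weeks. The stretches of Oas3 (chr5:120777703-120777756, minus strand) and Oas1a (chr5:120907526-120907567, minus strand) of GRCm38.p6 show the letters in capitals, 5′ to 3′ on the gene's strand.
Oas3: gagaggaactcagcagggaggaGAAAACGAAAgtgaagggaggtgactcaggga
Oas1a: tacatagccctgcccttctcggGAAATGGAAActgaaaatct

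Genes of glycolysis and of the hypoxia response rose together. Of 28 glycolysis and glucose uptake genes 17 rose and 3 fell (median 0.88), and of 21 hypoxia response genes 16 rose and 0 fell (median 1.15). Egln3, a prolyl hydroxylase gene that hypoxia-inducible factor induces, had 27.4, 52.5 and 23.9 FPKM in normal skin and 549.8, 306 and 319 at 20 weeks (3.5 ± 0.35, SE, adjusted p = 0.00091). Vegfa, of the vascular growth factor, went from 17.7, 15.9 and 7.99 to 49.7, 41.2 and 28.1 FPKM. Of 19 blood endothelial genes 0 rose and 3 fell, a share of 15.8% beside 39.7% of all genes. None was called in the 12-library fit, or without normal replicate 1 or 2 or replicate 1 or 2 of 20 weeks. The glucose transporter gene Slc2a1 went from 40.2, 48.1 and 33.4 to 141, 133 and 94.1 and the lactate transporter gene Slc16a1 from 8.32, 10.6 and 7.86 to 47.1, 29.6 and 25.9 FPKM. Ldhb, of the lactate dehydrogenase chain of oxidative tissue, fell by 1.56 on the log2 scale. Genes of fatty acid uptake and oxidation fell in 11 and rose in 5 of 40, a share called of 40.0% that is near the 39.7% of all genes, where 3 rose without replicate 2 of 20 weeks, normal replicate 1 or normal replicate 3, and 3 rose and 21 fell after the rescaling. Ppara, the nuclear receptor that drives the pathway, fell by 2.2 on the log2 scale, whereas Fabp5, an epidermal fatty acid binding protein, went from 297, 479 and 200.3 to 7224, 6050.5 and 6415 FPKM.

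Redox and protein turnover genes moved as well. NRF2 target and pentose phosphate genes rose in 13 and fell in 5 of 28 (2 fell in the 12-library fit). Of the 13, 1 passed the filter only through the 20-week libraries. Gsto1, a glutathione transferase gene, went from 37.8, 45 and 51.7 to 514, 686 and 775 FPKM and Gpx2, an epithelial glutathione peroxidase gene, from 2.56, 2.51 and 3.0 to 38.9, 41 and 34.4. Proteasome subunits rose in 20 of 35 with a median of only 0.43, and in 5 after the rescaling. Smox, of spermine oxidase, rose from 6.63, 8.85 and 3.92 to 42.5, 36.1 and 32 FPKM. Cdkn2a, the cell cycle inhibitor gene that marks senescent cells, had 0.0583, 0.254 and 0 FPKM in normal skin and 8.01, 22.1 and 22 at 20 weeks, without overlap. It passed the filter only through the 20-week libraries, so no test is given. Cell cycle genes rose in 4 and fell in 2 of 39, a share called of 15.4% beside 39.7% of all genes, with 13 higher without replicate 3 of 20 weeks. Cholesterol synthesis genes rose in 13 of 22 and none fell, 8 without replicate 2 of 20 weeks and 7 after the rescaling. Hox genes, which mark body position, fell in 13 of 26 and none rose: Hoxb3 went from 7.49, 6.07 and 7.96 to 2.3, 2.17 and 2.74 FPKM. The labels do not say from which body site either group was taken. Among clock genes Npas2 fell from 6.26, 5.96 and 4.12 to 1.26, 0.892 and 0.531, and the labels give no hour of sampling.

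Against fibrotic skin at 6 weeks, a reference that shares its 20-week libraries with the comparison above, 570 genes were called (4.30%), 423 higher (3.19%) and 147 lower (1.11%), in a fit of the 9 untreated libraries. The count was unstable: it was 5 in the fit of all 12 libraries, 26 and 45 without replicates 2 and 3 of 20 weeks, and 21 and 18 without replicates 1 and 2 of 6 weeks. Cd8a had 0.050, 0.41 and 0.431 FPKM at 6 weeks and was higher at 20 weeks by 2.78 on the log2 scale, and Cd8b1 had 0.103, 0.401 and 0.183 and was higher by 2.53. The filter used the normal and the 20-week libraries, and both genes, like Krt2, passed it only through the latter, so these differences carry no test. Coch, of the matrix protein cochlin, had 20.1, 17.1 and 12.6 FPKM at 6 weeks and 1.35, 1.57 and 2.38 at 20 weeks, beside 11.1, 10.9 and 12.6 in normal skin. It was thus lowest at 20 weeks, by -2.66 ± 0.19 against 6 weeks (SE, adjusted p = 0.000584) and by -2.19 ± 0.16 against normal skin (SE, adjusted p = 0.000335). Krt2 had 12.2, 50.6 and 19.7 FPKM at 6 weeks, between the normal and the 20-week levels, and Ubd, an interferon-gamma-induced ubiquitin-like gene, had 1.87, 2.31 and 3.08 beside 65.6, 16.4 and 16.2 at 20 weeks. Coch kept its call in all 11 alternatives. Krt2 and Ubd were higher than at 6 weeks by 3.03 and 3.0, and the call of Ubd (adjusted p = 0.0242) was lost in 5 alternatives, the 12-library fit and those without replicate 2 or 3 of 20 weeks or replicate 1 or 2 of 6 weeks.

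**Figure D5:**
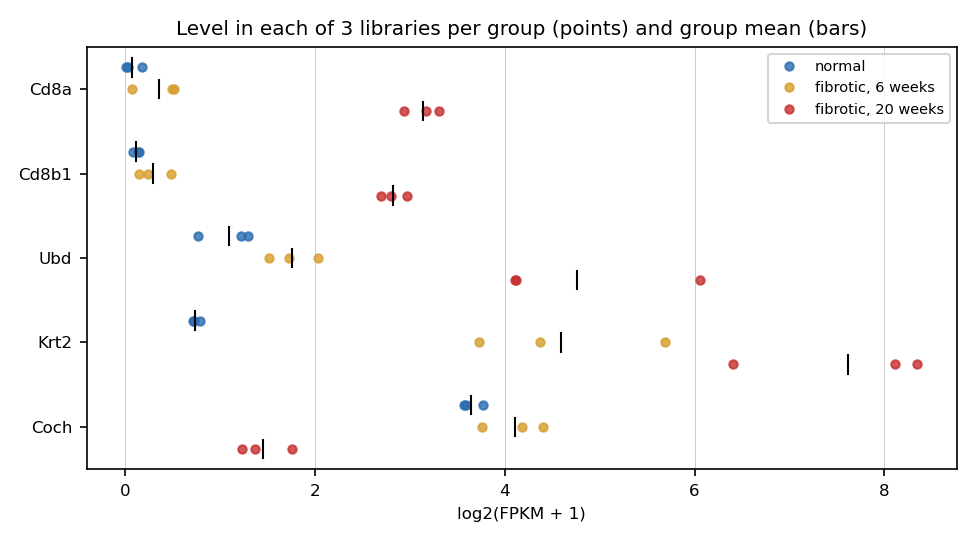
Level of 5 genes as log2(FPKM + 1) on the x axis for the normal, 6-week fibrotic and 20-week fibrotic groups, with 1 point for each of 3 libraries and a bar at the group mean. Cd8a, Cd8b1, Ubd and Krt2 are highest at 20 weeks and Coch is lowest there.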

How the data were processed

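The authors deposited 1 table of FPKM values per gene and library. Per the labels' protocols, RNA with an integrity number above 8.0 (250 ng) went into a stranded library kit that selects polyadenylated RNA, and libraries were pooled 5 to a pool and sequenced in paired-end runs of 101 cycles. Pool membership is not in the labels. The submitters' processing notes name mm10, TopHat2 2.0.13 and Cufflinks 2.2.1, and the annotation is not given in the sources used here. Steps between low values did not give whole reads (the most common step ratio held at most 216 of 2482 low genes of a library), so the depth is unknown and no counting interval is given. Values listed at exactly 0 beside 10 FPKM or more in all other libraries may be failed estimates.

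Values were fitted as log2(FPKM + 1) in limma 3.58.1 (R 4.3.3), with an intensity trend, on the 3 normal and 3 untreated 20-week libraries, and 20 against 6 weeks on the 9 untreated ones. Tests were 2-sided, and p-values were adjusted by Benjamini-Hochberg over all 13249 genes. In data simulated for 20 weeks against normal skin on 13249 genes, 83% of 2-fold and 94% of 4-fold changes were recovered, beside 5 false calls. The simulation drew independent normal noise with the fitted spread and changed 200 genes, far fewer than were called here. Its rates therefore need not hold for the real comparison. With 3 against 3 libraries an exact permutation test cannot go below 0.1, so none was used. No library pair was treated as a duplicate.

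The 66 gene lists (1552 members), the comparison and the naming rule were picked with earlier results of these data known. The rule takes the 10 highest and 10 lowest called genes of at least 5 FPKM in the higher group whose groups do not overlap. Of each list it takes up to 5 called and 3 abundant uncalled members, and every called member against its list's majority. It adds the 10 most abundant called genes of at least 2-fold, and Cd36, Thy1, Cav1, Col1a1, Col3a1, Fn1 and Adipoq. The 5 highest and 5 lowest called genes at 20 against 6 weeks, under the same conditions as the first, complete it. The neighbouring gene stretches and motifs were chosen after values were seen. Alternatives were a pseudocount of 0.1, other filters on low values, 2 rescalings, a fit of all 12 libraries, no trend, a replicate block and each library left out. The results of some genes that the rule takes are not reported here, although the counts include them.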

Additional observations from a re-analysis of the deposited data

Results flagged for a closer look

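The change between 6 and 20 weeks in fibrotic skin was fitted directly in the 9 untreated libraries. From the genes called there, 10 are listed here because their level differed between these times. For Cd8a and Krt2 the call is not read as a test, for the reason given with their values. Amd1, of the decarboxylase that feeds polyamine synthesis, was higher at 20 weeks by 5.31 on the log2 scale. It stood at 0.0145, 0.0285 and 0.0222 FPKM at 6 weeks and at 16.4, 9.71 and 19.2 in normal skin, and near-identical copies of it may share reads. Oaz1-ps, a pseudogene copy of the antizyme gene, was higher by 3.46, with the same uncertainty. Cd8a was higher by 2.78 and Krt2 by 3.03, both of which entered the test only through the 20-week libraries, and Ubd by 3.002. Coch was lower, with a log2 difference of -2.66. The hair shaft genes Krtap3-3 and Krtap24-1 were lower, with -2.48 and -2.14, as were Ly6g6d with -2.35 and Vsig8 with -2.35. Of the 10, Amd1 and Coch kept their call in all 11 alternatives. For Krtap3-3, Krtap24-1, Ly6g6d and Vsig8 the call was lost in the fit of all 12 libraries and when replicate 2 of 20 weeks was left out, among others. Their hair shaft share of FPKM varies between libraries of normal skin too, and its part in these 4 differences was not tested.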

How the results depend on the processing

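For 20 weeks against normal skin, 3814 to 4631 genes were called when each library was left out in turn, and 4615 in the fit of all 12 libraries, against 5259. With a mean of at least 5 FPKM, 9621 genes were tested, of which 2052 were higher and 1789 lower, and 53.4% of calls were higher in place of 46.6%. After rescaling to equal totals without the muscle, hair shaft and cornified envelope genes 1350 were higher and 5859 lower, and 18.7% of calls were higher in place of 46.6%. Of 361 named genes called, none reversed under any of the 14 alternatives, and 3 to 66 lost their call in each of them, most in the fit of all 12 libraries. List medians that changed sign included those of the EGF receptor list (-0.22 after the rescaling), the hair shaft list (-0.58 without normal replicate 1 to 1.501 without normal replicate 2, against 0.59), the other interleukins (-0.14 without replicate 1 of 20 weeks to 0.038 without replicate 2) and the T and NK cell list (-0.71 with a mean of at least 5 FPKM). After the rescaling the medians of other collagens (-0.05), collagen modification (-0.15), TGF-beta (-0.23), metalloproteinase (-0.045), MHC (-0.093), polyamine (-0.022), endoplasmic reticulum stress (-0.066), clock (-0.27) and p53 genes (-0.090) also fell below 0, and under median-of-ratios scaling those of elastic fibre (0.026), other interleukin (0.0060) and dendritic cell genes (0.037) rose above it. The sign of the clock, dendritic cell, elastic fibre, immediate early, inner root sheath, metalloproteinase, other collagen, TGF-beta, blood endothelial and skeletal muscle medians also changed when 1 or another library was left out. Crtap, Etfa, Itgb1 and Oaz1, not called in the reported fit, turned to -0.28, -0.30, -0.31 and -0.28 after the rescaling and were called there (adjusted p = 0.0351, 0.0474, 0.0333 and 0.0482). The causes were not tested.

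The labels' replicate numbers are shared between groups. Deviations of same-numbered libraries from their group means had correlations of -0.357, -0.0759 and -0.0875, and those of differently numbered libraries -0.189 to 0.360. With so few libraries per group the deviations within a group depend on each other, so these values cannot decide whether replicates were paired. With the replicate block 3741 genes were called at 20 weeks against normal skin.

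For 20 against 6 weeks, 570 genes were called. The fit of all 12 libraries gave 5 (1 higher, 4 lower), no filter on low values 374 (268 higher), and the replicate block 102 (79 higher, 23 lower). Leaving out each library gave 18 to 748, with 9 to 449 higher and 7 to 299 lower. The unknown depth and the 3 libraries per group limit all values.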
